A study of Mus with 18 samples.

Results

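A set of 9 genes of bone morphogenetic protein (BMP) signaling were followed through the early injury response of the mouse lens epithelium: the ligand genes Bmp2 (ENSMUSG00000027358), Bmp4 (ENSMUSG00000021835) and Bmp7 (ENSMUSG00000008999), the secreted BMP antagonist Grem1 (ENSMUSG00000074934), the transcriptional regulators Id1 (ENSMUSG00000042745), Id2 (ENSMUSG00000020644), Id3 (ENSMUSG00000007872) and Id4 (ENSMUSG00000021379), and the inhibitory Smad gene Smad6 (ENSMUSG00000036867). They were chosen by name for their place in this pathway, with earlier results of these data known, and are 9 of the 55416 gene IDs counted. All 9 had counts, and all 9 passed the filter on low counts in every comparison except that of Egr1KO with WT at 0 h, where Grem1 did not.

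BMP ligands are secreted proteins of the TGF-beta superfamily. They bind receptor kinases at the cell surface, which phosphorylate Smad1, Smad5 and Smad8/9, and these enter the nucleus with Smad4. Among the genes that this signal commonly raises are Id1, Id2 and Id3, which encode helix-loop-helix proteins without a DNA-binding domain that hold basic helix-loop-helix factors inactive, and Smad6, which acts back on the pathway as an inhibitor. Gremlin-1, the product of Grem1, binds BMP2, BMP4 and BMP7 outside the cell and keeps them from their receptors. In the eye, Bmp4 and Bmp7 are needed for the lens to form, and BMP signaling takes part in lens fiber differentiation.

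RNA sequencing was done on 18 libraries in 6 groups of 3, made from lens capsules with their attached lens epithelial cells (LECs). The fiber cell mass was lifted out of the lens as a model of cataract surgery. Capsules were taken either at once (0 h) or after 6 h in the living eye (6 h post cataract surgery, PCS). The mice were aged 3 to 5 months and of both sexes, and each library pooled 5 capsules, so n counts pools and not single animals. One eye was operated first and the other 6 h later, so that both time points came from the same animals.

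The 6 groups were WT at 0 h, WT at 6 h, Egr1KO at 0 h, Egr1KO at 6 h, FosBcKO at 0 h and FosBcKO at 6 h. The Egr1KO mice lacked the transcription factor Egr1 in the whole body, by a neomycin cassette set into exon 2 of the gene. The labels give the strain of every group as C57BL/6, but per the methods the Egr1KO line came from a stock of mixed strain origin, so an effect of strain background in Egr1KO cannot be told apart from that of the genotype. In FosBcKO mice, floxed exons 2 and 3 of Fosb were removed by the MLR10 Cre, a transgene under a modified alphaA-crystallin promoter that is active in lens cells, so that other cells kept Fosb. Both genes encode immediate early transcription factors. Per the methods the Cre line came from FVB/N mice and was backcrossed to C57BL/6, and no strain is given for the floxed line. None of the 6 groups is named as carrying the Cre without the floxed gene. Effects of the Cre or of strain background in FosBcKO therefore cannot be told apart from that of the loss of Fosb. The targeted genes and the markers of LECs and of other cell types were not analysed here, and the genotype labels were therefore not checked in the counts. The remaining receptors, Smads and antagonists of the pathway, as well as sequences and gene lengths, were not analysed here, and levels are compared between groups but not between genes.

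The libraries held 9609295 to 13871592 counts in genes, and no 2 libraries were identical. Levels are given as CPM, the count of a gene per 1000000 counts in all genes of the library. A gene was called where its FDR over all genes tested was at most 0.05 and its change was more than 2-fold. Some libraries stood apart for these genes. WT 0 h replicate 2 held 21 Bmp2 counts, or 1.87 CPM, against 27.0 and 38.9 CPM in the other WT 0 h libraries, and was also the lowest of its group for Bmp4 and Grem1. Egr1KO 6 h replicate 1 was the highest of its group for 6 of the 9 genes and the lowest for the other 3, and it had the lowest mean correlation with its own group of all 18 libraries (0.934, over genes). Egr1KO 6 h replicate 2 was next lowest in this correlation (0.938) and held the highest Bmp2 and Grem1 levels of all 18 libraries. FosBcKO 0 h replicate 3 and FosBcKO 6 h replicate 3 were each also the highest of their group for 6 of the 9 genes. The changes that moved most without WT 0 h replicate 2 or Egr1KO 6 h replicate 1 are also given without that library, and some are given without the others.

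**Figure D1:**
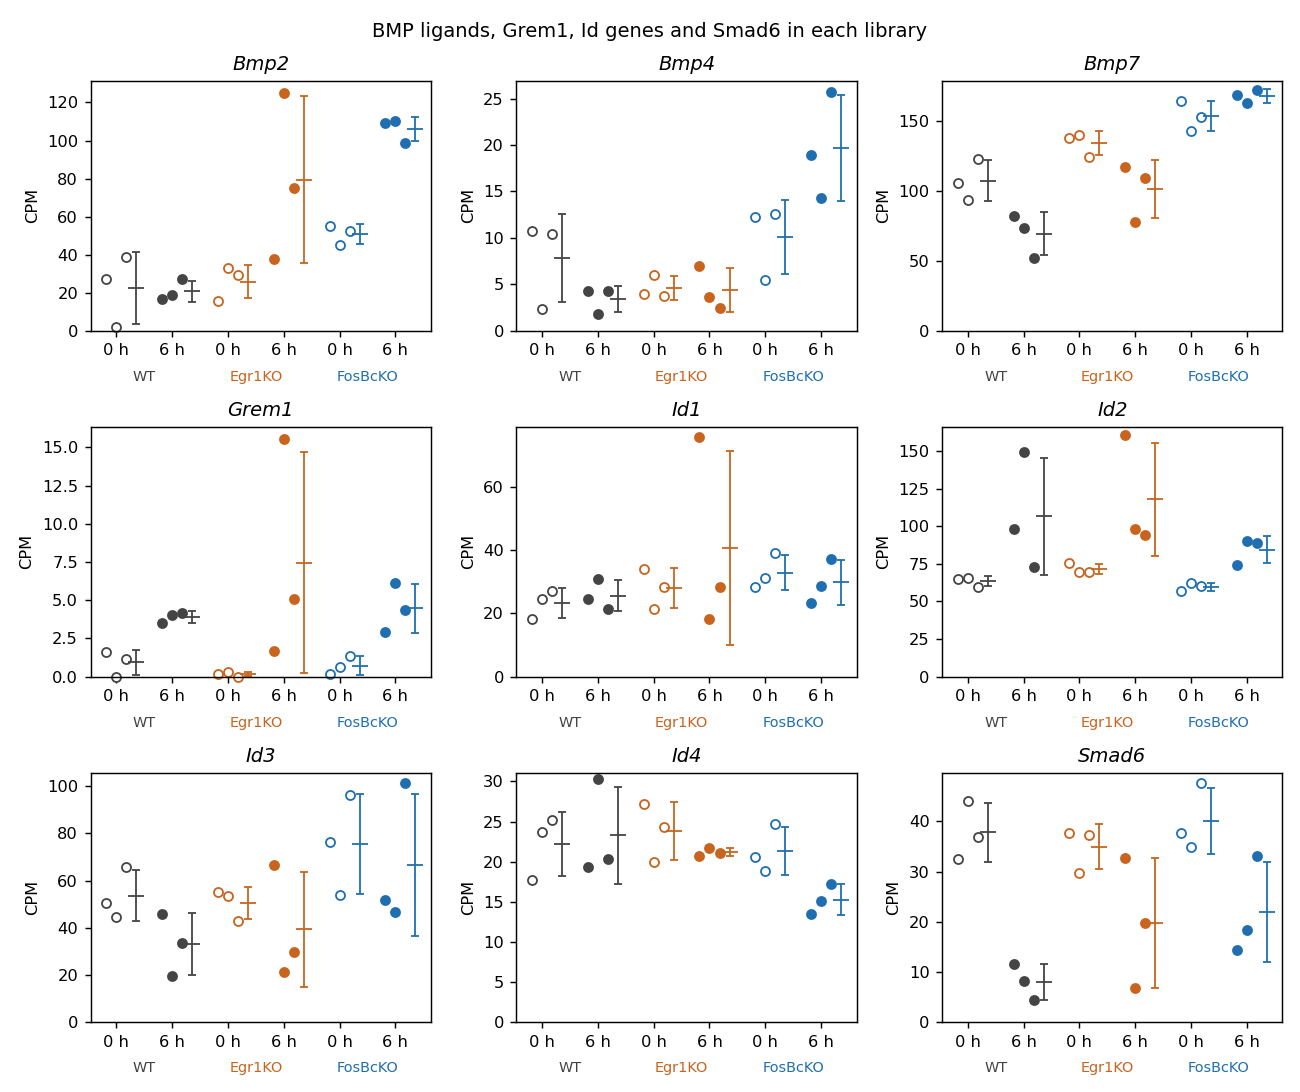
Each panel plots the CPM (linear axis from 0) of 1 gene in all 18 libraries, with open points at 0 h and filled points at 6 h PCS, and the bar beside each group is its mean ± SD (n = 3). All FosBcKO 6 h points of Bmp2 (98.9 to 110.3 CPM) and Bmp4 (14.3 to 25.7 CPM) lie above all WT points, and the WT 6 h points of Smad6 (4.38 to 11.6 CPM) lie below all 0 h points.

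Over the 3 genotypes, Grem1 rose 10.4-fold and Smad6 fell 2.46-fold from 0 h to 6 h, and no ligand or Id gene was called. In one fit of all 18 libraries (edgeR quasi-likelihood F-test), the mean change over the genotypes was called higher for 1 of the 9 genes, Grem1, and lower for 1, Smad6. Of all 17469 genes tested in it, 19.3% were called higher and 3.22% lower. The median log2 fold change was -0.11 for the 9 genes and 0.08 for all genes. In such bulk samples fewer cells of a type and less RNA per cell cannot be told apart.

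Bmp2 encodes a ligand that also drives bone formation. In WT its level was 27.0, 1.87 and 38.9 CPM in the 3 libraries at 0 h and 16.5, 18.6 and 27.0 CPM at 6 h. The WT groups overlapped, with most of the spread at 0 h coming from replicate 2. Egr1KO libraries held 15.8, 32.7 and 29.1 CPM of Bmp2 at 0 h and 37.6, 125 and 75.2 CPM at 6 h. FosBcKO libraries held 55.3, 45.0 and 52.4 CPM at 0 h and 109, 110.3 and 98.9 CPM at 6 h. In both knockouts every 6 h library was above every 0 h library of the same genotype, and in FosBcKO the 3 libraries of a group lay closest together, with a coefficient of variation of 10.5% at 0 h and 5.98% at 6 h.

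Bmp2 rose after surgery in both knockouts and was not called in WT. Its fold change was 3.14 in Egr1KO (log2 1.65 ± 0.42, SE; edgeR quasi-likelihood F-test, FDR = 0.0311) and 2.09 in FosBcKO (log2 1.06 ± 0.15; the same test, FDR = 0.00293). In WT the log2 change was -0.23, with a 95% interval from -2.17 to 1.71 (FDR = 0.86 by the quasi-likelihood F-test). Without WT 0 h replicate 2 it was -0.79, and without WT 0 h replicate 3 it was 0.39, so the direction in WT depended on which library was in the fit. The difference of the Egr1KO response from that in WT was 1.86 on the log2 scale, with an interval from -0.11 to 3.82, and for FosBcKO it was 1.23 (-0.71 to 3.18), and neither passed the test of the difference (edgeR quasi-likelihood F-test, FDR = 0.772 and 0.83). These differences were 2.43 and 1.77 without WT 0 h replicate 2 and 1.23 and 0.60 without WT 0 h replicate 3. The call in Egr1KO was lost in 5 of the 6 fits that left out 1 library, which gave log2 changes from 1.24 to 1.95, and held without Egr1KO 6 h replicate 1. In FosBcKO the change went under 2-fold without 0 h replicate 2 (0.89) or without 6 h replicate 2 (0.93). It also missed the threshold in FosBcKO in the fit of all 18 libraries (log2 1.04; FDR = 0.264, with a range of 3.53e-07 to 0.264 over 16 alternatives).

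Bmp4 encodes a close relative of BMP2 and was the least abundant of the ligand genes by count, with 18 to 299 counts in a library. In WT it stood at 10.7, 2.40 and 10.4 CPM at 0 h and 4.24, 1.81 and 4.29 CPM at 6 h. In Egr1KO it stood at 3.998, 6.05 and 3.75 CPM at 0 h and 7.03, 3.68 and 2.45 CPM at 6 h. In FosBcKO it stood at 12.2, 5.50 and 12.6 CPM at 0 h and 18.9, 14.3 and 25.7 CPM at 6 h. In FosBcKO all 6 h libraries were above all 0 h libraries, and in WT and Egr1KO the time points overlapped.

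Bmp4 was not called after surgery in any of the 3 genotypes. The log2 change was -1.29 ± 0.57 (SE) in WT, 0 ± 0.43 in Egr1KO and 0.94 ± 0.34 in FosBcKO (edgeR quasi-likelihood F-test, FDR = 0.128, 1 and 0.0711), and in Egr1KO it was -0.58 without Egr1KO 6 h replicate 1. Same-numbered WT libraries deviated together, and with the replicate number as a block Bmp4 was called lower at 6 h in WT, by -1.16 on the log2 scale, which made 2 called genes in place of 1 in WT. It was also called without WT 0 h replicate 2, at -1.73. The FosBcKO response lay above that of WT by 2.17 on the log2 scale (95% interval 0.68 to 3.66; unadjusted p = 0.00675), which did not pass after adjustment (FDR = 0.53, edgeR quasi-likelihood F-test).

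Bmp7 was measured with 549 to 2009 counts in each library and had the narrowest range of group means of the ligand genes (2.42-fold). In WT its level was 106, 93.8 and 123 CPM at 0 h and 82.3, 73.6 and 52.3 CPM at 6 h. In Egr1KO it was 138, 140.3 and 124 CPM at 0 h and 118, 78.2 and 109.7 CPM at 6 h. In FosBcKO it was 164, 143 and 153 CPM at 0 h and 169, 163 and 173 CPM at 6 h. The time points did not overlap in WT and in Egr1KO, where 6 h was lower, and they overlapped in FosBcKO.

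None of these Bmp7 changes exceeded 2-fold. The log2 change was -0.73 ± 0.22 (SE) in WT, which passed the FDR threshold but not the fold minimum (edgeR quasi-likelihood F-test, FDR = 0.0406), and fits without 1 library gave -0.88 to -0.51. It was -0.33 ± 0.19 in Egr1KO and 0.13 ± 0.14 in FosBcKO (FDR = 0.25 and 0.504 by the same test). The FosBcKO response differed from that of WT by 0.80 on the log2 scale (interval 0.23 to 1.37; unadjusted p = 0.00867), with FDR = 0.549 in the edgeR quasi-likelihood F-test.

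Grem1, the antagonist, was close to the limit of detection at 0 h in every genotype. In WT it was at 1.63, 0 and 1.17 CPM at 0 h and at 3.49, 4.03 and 4.19 CPM at 6 h. In Egr1KO it was at 0.16, 0.29 and 0 CPM at 0 h and at 1.68, 15.6 and 5.09 CPM at 6 h. In FosBcKO it was at 0.18, 0.62 and 1.36 CPM at 0 h and at 2.92, 6.14 and 4.38 CPM at 6 h. A count of 0 allows a level of up to 0.267 CPM in WT 0 h replicate 2 and 0.312 CPM in Egr1KO 0 h replicate 3, at 3 counts and for counting error only. All 6 h libraries of each genotype were above all of its 0 h libraries, and in Egr1KO the 6 h libraries spread most, with a coefficient of variation of 97.2%.

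Summed over the 3 libraries of a group, Grem1 counts went from 29 to 121 in WT, from 5 to 287 in Egr1KO and from 22 to 156 in FosBcKO. Scaled by the total counts these are ratios of 4.3 (95% exact counting interval 2.85 to 6.69), 53.6 (22.7 to 166) and 6.34 (4.04 to 10.4), and these intervals cover counting error only. Grem1 rose over the 3 genotypes by 3.38 ± 0.57 (SE) on the log2 scale (edgeR quasi-likelihood F-test, FDR = 0.000119), and it was called in all 26 alternatives, which gave 3.03 to 3.63. Within a genotype it was called in Egr1KO (log2 5.52; FDR = 0.0116, quasi-likelihood F-test) and in FosBcKO (log2 2.64; FDR = 0.027). In WT the log2 change was 1.97 with an interval from -0.06 to 3.997 (FDR = 0.132 in the quasi-likelihood F-test), and it was 1.37 without WT 0 h replicate 2, which had no Grem1 count, and 2.63 without WT 0 h replicate 1. The Egr1KO call was lost without 0 h replicate 1 and without 0 h replicate 3, with log2 changes of 5.57 and 5.01, and the FosBcKO call was lost without 0 h replicate 1, 0 h replicate 2 or 6 h replicate 2, with log2 changes of 2.14, 2.46 and 2.23. Without Egr1KO 6 h replicate 2, the library with the highest level, the Egr1KO change was 4.48 and kept its call. The Egr1KO response was above that of WT by 3.54 on the log2 scale (interval 0.55 to 6.52; unadjusted p = 0.0228), which did not pass after adjustment (FDR = 0.738, edgeR quasi-likelihood F-test). That difference was 2.49 without Egr1KO 6 h replicate 2, which held 216 of the 287 counts, and 4.23 without Egr1KO 0 h replicate 2.

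**Figure D2:**
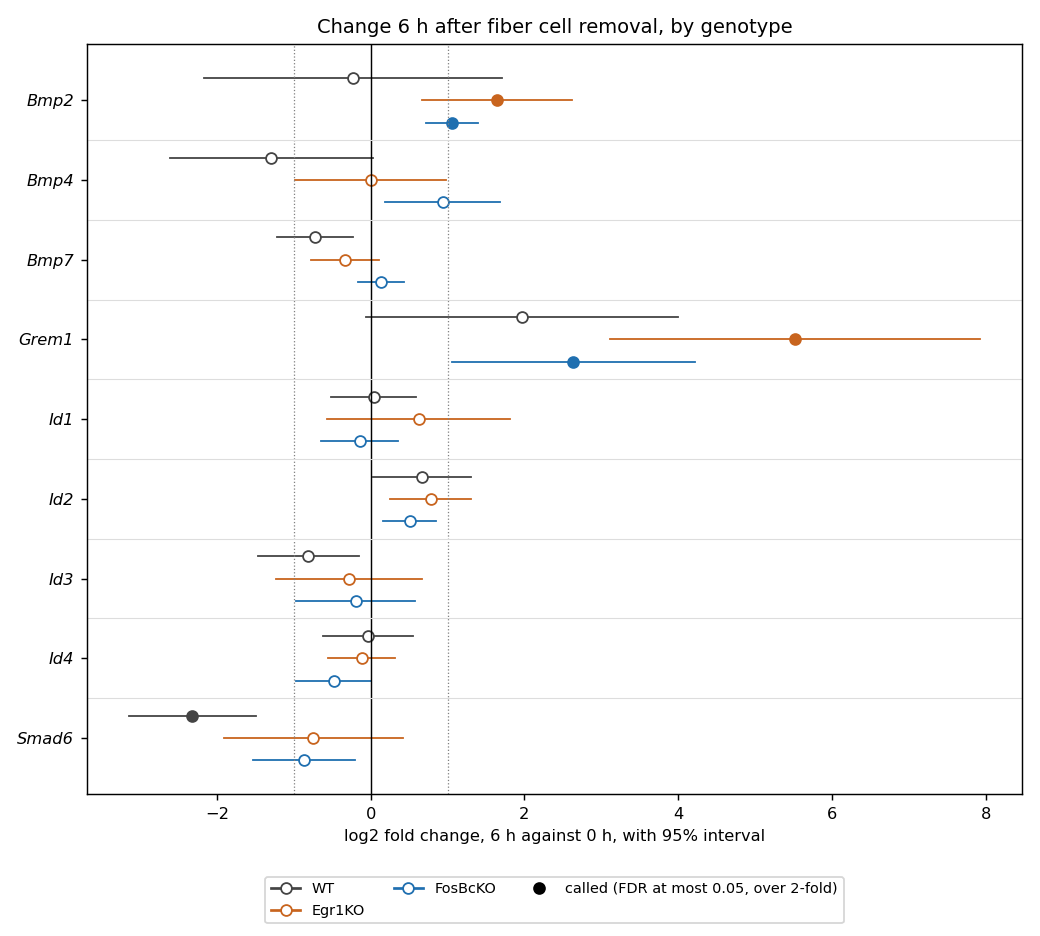
Log2 fold change of each gene at 6 h PCS against 0 h within WT, Egr1KO and FosBcKO (horizontal axis), with its 95% interval as a line, a filled point where the change was called and dotted lines at 2-fold. Smad6 in WT (-2.32) is the only filled point left of 0, and the filled points right of 0 are Bmp2 and Grem1 in Egr1KO (1.65 and 5.52) and in FosBcKO (1.06 and 2.64).

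Smad6 encodes an inhibitory Smad that blocks BMP receptor signaling. In WT its level was 32.5, 44.0 and 36.9 CPM at 0 h and 11.6, 8.27 and 4.38 CPM at 6 h. In Egr1KO it was 37.6, 29.8 and 37.4 CPM at 0 h and 32.8, 6.85 and 19.7 CPM at 6 h. In FosBcKO it was 37.7, 34.9 and 47.5 CPM at 0 h and 14.4, 18.3 and 33.1 CPM at 6 h. The 0 h libraries of the 3 genotypes overlapped, and at 6 h the WT libraries had the lowest mean, with a coefficient of variation of 44.6% in WT, 65.6% in Egr1KO and 44.9% in FosBcKO.

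Smad6 fell 4.98-fold in WT (log2 -2.32 ± 0.36, SE; edgeR quasi-likelihood F-test, FDR = 0.00377), and this call held in all 16 alternatives, from -2.68 to -1.98. Over the 3 genotypes the log2 change was -1.30 ± 0.28 (FDR = 0.00124, the same test), and all 26 alternatives called it. In Egr1KO the change was -0.74 ± 0.50, with an interval from -1.91 to 0.42, and in FosBcKO it was -0.87 ± 0.30 (FDR = 0.318 and 0.0618, edgeR quasi-likelihood F-test). Without FosBcKO 6 h replicate 3, which at 33.1 CPM was the highest of its group, the FosBcKO change was -1.35 and was called. Without Egr1KO 6 h replicate 1 the Egr1KO change was -1.37 and was not called. The knockout responses lay above that of WT by 1.55 (interval 0.10 to 2.99; unadjusted p = 0.0374) in Egr1KO and by 1.39 (-0.05 to 2.83; unadjusted p = 0.0576) in FosBcKO on the log2 scale, and the edgeR quasi-likelihood F-test did not pass either after adjustment (FDR = 0.738 and 0.746). Without Egr1KO 6 h replicate 1 the first of these differences was 0.96.

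The 4 Id genes did not move as a group, and none of them was called in any of the comparisons. Id2 was the only Id gene whose libraries at the 2 time points were apart in all 3 genotypes. Its WT level was 64.6, 65.9 and 59.6 CPM at 0 h and 98.2, 149 and 72.8 CPM at 6 h. In Egr1KO it was 75.5, 69.9 and 69.7 CPM at 0 h and 161, 98.4 and 94.1 CPM at 6 h. In FosBcKO it was 56.9, 62.0 and 59.9 CPM at 0 h and 74.1, 90.3 and 88.6 CPM at 6 h. In each genotype all 3 libraries at 6 h were above all 3 at 0 h, and the 0 h libraries lay within a coefficient of variation of 4.35 to 5.28%.

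The mean Id2 change over the genotypes was 0.66 ± 0.14 (SE) on the log2 scale, or 1.58-fold, which passed the FDR threshold but not the 2-fold minimum (edgeR quasi-likelihood F-test, FDR = 0.001), and it was 0.51 without Egr1KO 6 h replicate 1. By genotype it was 0.66 in WT, 0.78 in Egr1KO and 0.51 in FosBcKO (FDR = 0.109, 0.0446 and 0.0406, quasi-likelihood F-test), and the Egr1KO change was 0.43 without Egr1KO 6 h replicate 1. The difference from the WT response was 0.10 (-0.64 to 0.83) for Egr1KO and -0.21 (-0.94 to 0.53) for FosBcKO, so that differences in either direction lie within both intervals, and the first was -0.22 without Egr1KO 6 h replicate 1.

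With all libraries, Id3 had negative log2 changes in all 3 genotypes, none of which was called. It was at 50.7, 44.8 and 65.6 CPM at 0 h and 45.9, 19.7 and 33.7 CPM at 6 h in WT. In Egr1KO it was at 55.0, 53.7 and 42.8 CPM at 0 h and 66.8, 21.5 and 29.7 CPM at 6 h. In FosBcKO it was at 76.4, 54.1 and 96.3 CPM at 0 h and 51.9, 46.9 and 101.4 CPM at 6 h. The time points overlapped in all 3 genotypes. The log2 change was -0.81 ± 0.29 (SE) in WT, -0.28 ± 0.41 in Egr1KO and -0.20 ± 0.33 in FosBcKO (edgeR quasi-likelihood F-test, FDR = 0.0683, 0.642 and 0.699). The Egr1KO value was -0.96 without Egr1KO 6 h replicate 1, and in WT it was called without 6 h replicate 1, at -1.15. The FosBcKO value was -0.69 without FosBcKO 6 h replicate 3 and was not called. Other fits turned the sign, to 0.047 in Egr1KO without 6 h replicate 2 and to 0.005 in FosBcKO without 0 h replicate 3. The direction in both knockouts therefore depended on which library was in the fit.

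Id1 is a widely used transcriptional readout of BMP signaling, and it was called in none of the genotypes. In WT it was at 18.2, 24.5 and 27.3 CPM at 0 h and 24.5, 31.0 and 21.3 CPM at 6 h. In Egr1KO it was at 34.0, 21.3 and 28.5 CPM at 0 h and 75.8, 18.2 and 28.4 CPM at 6 h. In FosBcKO it was at 28.5, 31.3 and 39.1 CPM at 0 h and 23.4, 28.8 and 37.4 CPM at 6 h. The groups overlapped in each genotype, and the 1 value far from the rest was that of Egr1KO 6 h replicate 1. The Egr1KO change on the log2 scale was 0.62 with that library and -0.25 without it, and in WT and FosBcKO it was 0.04 (-0.51 to 0.59) and -0.14 (-0.64 to 0.35).

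Id4, the fourth Id gene, had the narrowest range of group means of the 9 genes (1.56-fold). Its libraries ran from 17.7 to 25.2 CPM in WT at 0 h, from 19.3 to 30.2 in WT at 6 h, from 19.97 to 27.2 in Egr1KO at 0 h and from 20.7 to 21.7 in Egr1KO at 6 h. In FosBcKO the values were 20.5, 18.9 and 24.6 CPM at 0 h and 13.5, 15.1 and 17.3 CPM at 6 h. The FosBcKO 6 h libraries were the 3 lowest of all 18. The FosBcKO log2 change was -0.48 ± 0.22 (SE; FDR = 0.138, edgeR quasi-likelihood F-test), and the response differed from that of WT by -0.51 (-1.17 to 0.16).

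The counts of called genes after surgery are set against all genes as follows. In WT, 0 of the 9 genes were called higher, where 13.5% of all 15440 genes tested were, and 1 was called lower, where 3.65% were. In Egr1KO, 2 were called higher against 9.28% of 14586 genes, and 0 lower against 2.69%. In FosBcKO, 2 were called higher against 11.2% of 15475 genes, and 0 lower against 1.9%. Before adjustment, 4, 3 and 5 of the 9 genes had p under 0.05 in WT, Egr1KO and FosBcKO by the edgeR quasi-likelihood F-test, as did 41.2%, 37.6% and 37.3% of all genes tested. The DESeq2 Wald test called 1, 2 and 2 of the 9, and 11.2%, 9.14% and 8.15% of all genes in either direction. These DESeq2 shares are over 29194, 27200 and 31570 genes, as no filter on low counts was applied first. They are therefore not on the same base as the edgeR shares. Groups without overlap between the time points were seen for 4 of the 9 genes in WT, 4 in Egr1KO and 6 in FosBcKO, where 48%, 43.3% and 42.9% of all genes tested did not overlap. With 9 genes these shares carry little weight, and 1 gene more or less moves each of them widely.

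Each knockout was next set against WT, at 0 h and at 6 h, with the edgeR exact test and intervals from the quasi-likelihood fit. These comparisons share their WT libraries, so a low or high WT library enters both. At 0 h no gene of the 9 was called in either knockout. For Egr1KO 8 of the 9 could be tested, and 0.41% of all 14373 genes tested were called. For FosBcKO 9 were tested, and 0.295% of 14556 genes were called. At an unadjusted p under 0.05 there were 1 of the 8 genes in Egr1KO and 2 of the 9 in FosBcKO, against 6.4% and 5.62% of all genes tested, and the DESeq2 Wald test and the edgeR quasi-likelihood F-test called none of them either.

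Bmp7 was the ligand whose 0 h libraries in the knockouts lay apart from WT. All 3 Egr1KO libraries (124 to 140.3 CPM) and all 3 FosBcKO libraries (143 to 164 CPM) were above the highest WT library (123 CPM). The log2 difference was 0.34 ± 0.10 (SE) in Egr1KO and 0.51 ± 0.11 in FosBcKO, and neither passed adjustment (edgeR exact test, FDR = 0.562 and 0.198). Groups did not overlap for 2 of the genes in Egr1KO at 0 h, Bmp7 and Id2, against 16.5% of all genes tested. They did not overlap for 3 in FosBcKO, Bmp2, Bmp7 and Id1, against 14.2%. For Bmp2 in FosBcKO at 0 h the log2 difference was 1.19 (-1.50 to 3.88; FDR = 1 in the edgeR exact test) with all libraries and 0.65 without WT 0 h replicate 2.

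At 6 h all 3 ligand genes were called higher in FosBcKO than in WT, and of the ligand genes Bmp2 was called higher in Egr1KO. In FosBcKO the log2 difference from WT was 2.50 for Bmp2 (interval 2.02 to 2.98), 2.64 for Bmp4 (1.80 to 3.47) and 1.39 for Bmp7 (0.86 to 1.93), which are 5.67-fold, 6.22-fold and 2.62-fold (edgeR exact test, FDR = 2.83e-18, 1.05e-08 and 3.54e-05). The Bmp4 call held in all 16 alternatives, which gave 2.35 to 2.84. The Bmp2 call held in 15, with the exception of the fit of all 18 libraries (log2 2.43; FDR = 0.0744, the highest of a range from 2.45e-19). The Bmp7 call held in 15, with the exception of the fit with the replicate number as a block, although these numbers did not pair the libraries of different genotypes.

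In Egr1KO Bmp2 was 4.4-fold higher than in WT at 6 h (log2 2.14, interval 1.26 to 3.02; edgeR exact test, FDR = 0.000502). The exact test called it without each library in turn, from 1.73 to 2.47, and the quasi-likelihood F-test did not (unadjusted p = 0.000455; FDR = 0.394, within a range of 5.88e-11 to 0.689 over the 16 alternatives). That test called 0 of all 15618 genes in this comparison. The corresponding log2 differences were 0.58 (-0.66 to 1.82) for Bmp4 and 0.77 (0.13 to 1.41) for Bmp7 (edgeR exact test, FDR = 0.842 and 0.343), and the first was 0.03 without Egr1KO 6 h replicate 1.

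Smad6 was 2.93-fold higher in FosBcKO than in WT at 6 h (log2 1.55, interval 0.54 to 2.57; edgeR exact test, FDR = 0.0246). This call was lost in 7 of 16 alternatives, among them the quasi-likelihood F-test and the fits without WT 6 h replicate 2, WT 6 h replicate 3, FosBcKO 6 h replicate 2 or FosBcKO 6 h replicate 3, where the log2 difference was 1.59, 1.20, 1.60 and 1.14. In Egr1KO the difference was 1.52 (interval 0.14 to 2.89) and did not pass (FDR = 0.333, edgeR exact test). It was 0.92 without Egr1KO 6 h replicate 1 and 1.95 without Egr1KO 6 h replicate 2, where it was called.

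Of the other genes, Id3 was higher in FosBcKO than in WT at 6 h by 1.14 on the log2 scale (interval 0.30 to 1.98), which missed the threshold (edgeR exact test, FDR = 0.0616). It was called by the DESeq2 Wald test (log2 1.11) and without WT 6 h replicate 1 or FosBcKO 6 h replicate 1. Without FosBcKO 6 h replicate 3, which at 101.4 CPM was the highest of its group, the Id3 difference fell to 0.71. Without WT 6 h replicate 2 it was 0.89, and neither of these fits called it. Grem1 was not called in either knockout. It differed from WT at 6 h by 0.35 (-0.59 to 1.30) in FosBcKO and by 1.10 (-0.42 to 2.63) in Egr1KO, with overlapping libraries in both (FDR = 0.827 and 0.668, edgeR exact test), and the Egr1KO difference was 0.07 without Egr1KO 6 h replicate 2 and 1.57 without Egr1KO 6 h replicate 1. Id1 and Id2 overlapped with WT in both knockouts. The 3 FosBcKO libraries of Id4 lay below those of WT, with a log2 difference of -0.49 (interval -1.11 to 0.14; FDR = 0.5, edgeR exact test).

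**Figure D3:**
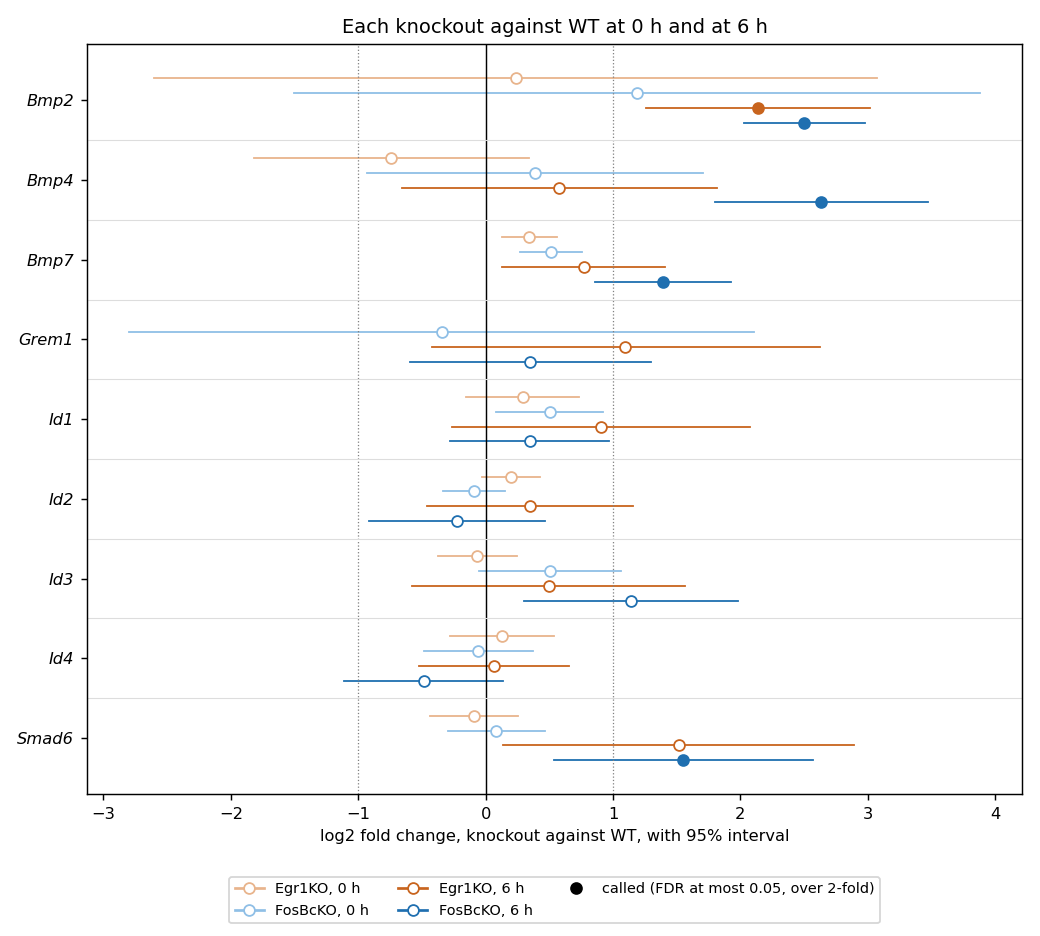
Log2 fold change of each knockout against WT (horizontal axis) at 0 h in pale and at 6 h in dark colors, with its 95% interval from the quasi-likelihood fit as a line and a filled point where the exact test called it; Grem1 in Egr1KO at 0 h was not tested. All 5 filled points are at 6 h and right of 0, namely Bmp2 in both knockouts (2.14 and 2.50) and Bmp4, Bmp7 and Smad6 in FosBcKO (2.64, 1.39 and 1.55).

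Called higher in the knockout at 6 h were 1 of the 9 genes in Egr1KO, where 0.461% of all genes tested were (72 genes, and 215 without Egr1KO 6 h replicate 2), and 4 of the 9 in FosBcKO, where 4.48% of 16155 genes were. Their median log2 difference was 0.77 in Egr1KO and 1.14 in FosBcKO, and that of all genes tested was 0.03 and 0. Libraries did not overlap for 1 of the genes in Egr1KO, against 16.9% of all genes, and for 6 in FosBcKO, against 21.8%. Those 6 were Bmp2, Bmp4, Bmp7, Id3 and Smad6, which were higher in FosBcKO, and Id4, which was lower.

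Whether the response to surgery itself differed from WT was tested as the difference of the changes. For Egr1KO 0 of the 9 genes and 0% of 17469 genes were called, and for FosBcKO likewise 0 of the 9 genes and 0% (edgeR quasi-likelihood F-test). Before adjustment 2 of the genes had p under 0.05 in each, Grem1 and Smad6 for Egr1KO and Bmp4 and Bmp7 for FosBcKO, and over all genes 6.53% and 6.7% did. The DESeq2 Wald test called none of the 9 in either. With no filter on low counts, the edgeR quasi-likelihood F-test called some of the 9, and 0.75% and 1.15% of 35202 genes. Among them were Grem1 and Smad6 for Egr1KO (FDR = 0.0402 and 0.00184) and Bmp4 for FosBcKO (FDR = 0.00601) in this test. No other setting called these 3 differences. The 6 h differences called for Bmp2, Bmp4, Bmp7 and Smad6 are differences in level at 6 h. With the filter they were not shown to be differences in the response to surgery. In FosBcKO the 0 h differences of these 4 genes were 1.19, 0.38, 0.51 and 0.08 on the log2 scale, and those of Bmp2 and Bmp4 were 0.65 and -0.04 without WT 0 h replicate 2.

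The order of the group means differed from gene to gene. WT at 6 h was the lowest group for Bmp2 (20.7 ± 5.56 CPM, SD, n = 3), Bmp4 (3.45 ± 1.42), Bmp7 (69.4 ± 15.4), Id3 (33.1 ± 13.1) and Smad6 (8.08 ± 3.61). FosBcKO at 6 h was the highest for the 3 ligand genes, at 106 ± 6.34 CPM for Bmp2, 19.6 ± 5.72 for Bmp4 and 168 ± 4.71 for Bmp7. The highest group exceeded the lowest 5.14-fold for Bmp2, 5.7-fold for Bmp4, 2.42-fold for Bmp7 and 4.95-fold for Smad6, and 1.56-fold to 2.29-fold for the 4 Id genes. Most neighbours in these orders overlapped. Neighbouring groups did not overlap between Egr1KO at 0 h and FosBcKO at 0 h for Bmp2, between FosBcKO at 0 h and FosBcKO at 6 h for Bmp4, between WT at 0 h and WT at 6 h for Grem1, between WT at 0 h and Egr1KO at 0 h for Id2, and between FosBcKO at 6 h and Egr1KO at 6 h for Id4. For Bmp7 Egr1KO at 0 h did not overlap with WT at 0 h below it or with FosBcKO at 0 h above it. For Id1, Id3 and Smad6 every group overlapped with its neighbours.

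The levels of some of the genes followed each other over the 18 libraries. By Pearson's r of log2(CPM + 0.5), Id3 was most like Bmp4 (0.75) among the other 8 genes, then Smad6 (0.73) and Bmp7 (0.72), and Grem1 was least like Smad6 (-0.73). These values describe 18 libraries in groups of 3 that share genotype and time, and carry no test. Bmp4 took rank 145 among 13525 genes in its likeness to Id3, so that many other genes followed Id3 more closely. Smad6 took rank 12094 among the 13525 genes in its likeness to Grem1, so that many other genes were less like Grem1. For Id1 the r was low with each ligand gene, at 0.05 for Bmp2, 0.15 for Bmp4 and 0.34 for Bmp7. Bmp7 nevertheless took rank 914 among the 13525 genes in its likeness to Id1.

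**Figure D4:**
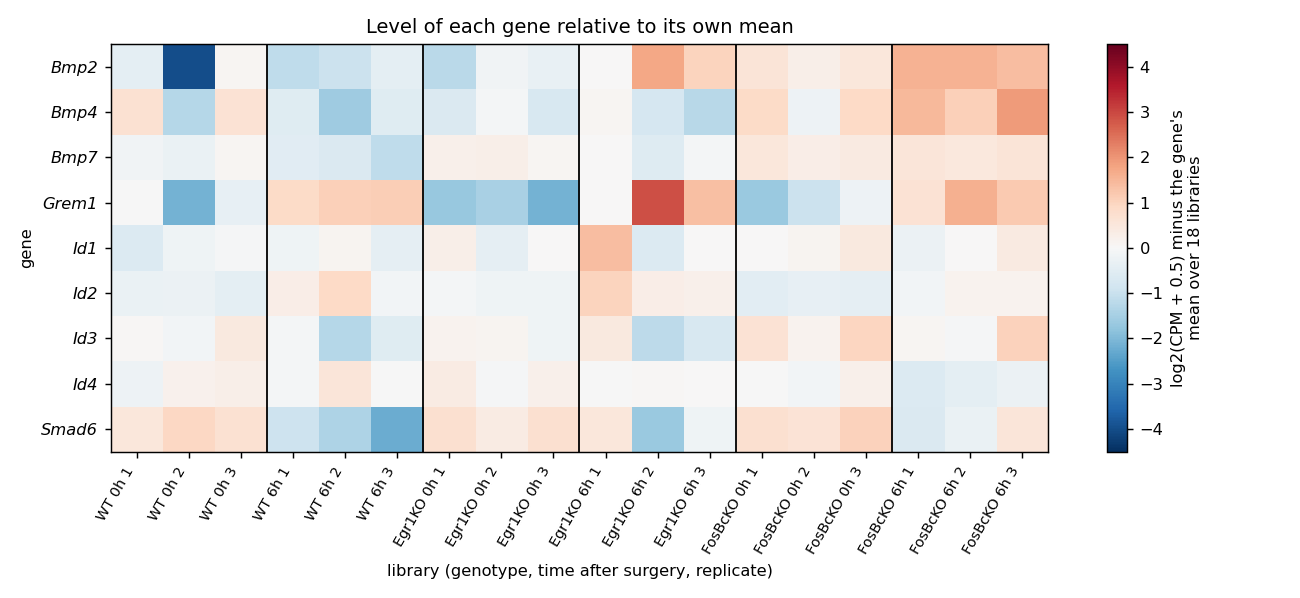
Each cell shows log2(CPM + 0.5) of 1 gene (rows) in 1 library (columns, grouped by genotype and time) minus the mean of that gene over the 18 libraries, with red above and blue below the mean. WT 0 h replicate 2 is the darkest blue cell of Bmp2, Egr1KO 6 h replicate 1 is the reddest cell of Id1, and the 3 FosBcKO 6 h libraries are red for Bmp2 and Bmp4.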

How the data were processed

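The 18 libraries were made from ribosome-depleted RNA with a stranded low-input kit and sequenced paired-end. The authors aligned the reads with HISAT2 and took gene-level counts of Ensembl genes with HTSeq in union mode, and the deposited values are these raw counts, with no normalization. The methods and the labels name different mouse genome builds, so no coordinates are given. HTSeq's 5 summary lines entered neither the library sizes nor the tests, and 20214 of the 55416 gene IDs had no count. Reads in no gene were 8.03 to 30.5% of a library, and this share differed with time. It was 15.2 to 19.8% at 0 h and 23.6 to 27.4% at 6 h in WT. In Egr1KO it was 9.09 to 13.5% and 20.0 to 24.0%, and in FosBcKO 8.03 to 20.9% and 23.4 to 30.5%. An effect of this share on the 6 h against 0 h changes was not tested.

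From the counts, CPM was computed on the total count in genes, and edgeR 4.0.16 (R 4.3.3) was run on all genes with TMM normalization (factors 0.898 to 1.145), filterByExpr by group and robust dispersions. The 6 h against 0 h tests and the tests of the difference in response used the quasi-likelihood F-test, on the 6 libraries of a genotype or on all 18, and knockout against WT used the exact test, after the methods of the study. The study ran an earlier edgeR version and reported fewer genes for WT at 6 h than the 2645 called here at like thresholds. The shares of all genes called in that comparison are therefore not those of the study, and the cause was not tested. FDR is Benjamini-Hochberg over all genes tested. SE and 95% intervals come from the quasi-likelihood fit. DESeq2 1.42.0, other scalings, filters, fits and leaving out each library were the alternatives. The tests were checked on simulated data. The 9 genes, their grouping and these tests were chosen with earlier results of these data known; all 9 are named, whatever their values. Each library is a pool of animals, and p-values measure the spread between such pools. Same-numbered WT libraries at 0 h and 6 h deviated together from their group means (r of 0.11 to 0.27 over genes, all 3 pairs over 0.1), and both eyes of a mouse were used, although no source says which pools share mice; in Egr1KO 1 of 3 pairs and in FosBcKO 2 of 3 passed 0.1.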

Additional observations from a re-analysis of the deposited data

How the results depend on the processing

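Repeats under another setting were tallied only for changes that were called or had an unadjusted p under 0.05, and for some others. The others were Id1 after surgery, Bmp2, Bmp4 and Grem1 after surgery in WT, and Bmp2 in FosBcKO at 0 h. Id4 was not tallied. Outside this tally, leaving out 1 library also turned some signs. Among these were Id3 in Egr1KO (-0.28, and 0.047 without 6 h replicate 2) and in FosBcKO (-0.20, and 0.005 without 0 h replicate 3). Of the 740 repeats tallied, 688 kept their direction and their side of the threshold, 28 lost a call, 18 gained one and 6 reversed. The reversals were Bmp2 in WT (-0.23) with the replicate block (0.27) and without WT 0 h replicate 3 (0.39; leaving out 1 library at a time gave -0.79 to 0.39), and Id1 in WT (0.04) without WT 0 h replicate 1 (-0.13) or WT 6 h replicate 2 (-0.17; range -0.17 to 0.21), in Egr1KO (0.62) without 6 h replicate 1 (-0.25; range -0.25 to 1.00) and over the 3 genotypes (0.18) without that library (-0.15; range -0.15 to 0.31). The number of the 9 genes called after surgery in WT was 1. It was 2 with the replicate block, with no filter on low counts or with no fold minimum. In Egr1KO the number was 2, with 1 with no filter or in one fit of all 18 libraries, and 3 with no fold minimum. In FosBcKO it was 2, with 0 in the fit of all 18 libraries and 3 with no fold minimum. For Egr1KO against WT at 6 h it was 1, and 0 by the quasi-likelihood F-test, with the replicate block and in the fit of 18 libraries. For FosBcKO against WT at 6 h it was 4, and 2 with the block and in the fit of 18 libraries. There the quasi-likelihood F-test did not call Smad6 (FDR = 0.136), and the DESeq2 Wald test also called Id3. Over the genotypes it was 2, and 4 with no fold minimum. For each difference in response it was 0, and 3 with no filter. Leaving out each library gave 1 to 2 called genes in WT, 0 to 2 in Egr1KO, 0 to 3 in FosBcKO, 0 to 0 for either knockout against WT at 0 h, 1 to 2 for Egr1KO and 3 to 5 for FosBcKO at 6 h, 2 to 3 over the genotypes and 0 to 0 for the differences in response. The cause of these shifts was not tested. Except in WT, the replicate numbers share only a number; in the comparisons not named here with the block, it left the count of called genes among the 9 as it was. Over all genes, FosBcKO against WT at 6 h called 874 genes by the exact test, 437 by the quasi-likelihood F-test, 86 with the block and 289 in the fit of 18 libraries, and Egr1KO called 115, 0, 0 and 7, or 76 with no filter. At 0 h the same 4 fits called 59, 17, 10 and 2 genes in Egr1KO and 43, 11, 14 and 6 in FosBcKO, or 24 with no filter. With no fold minimum, the calls after surgery went from 2645 to 4048 in WT, from 1746 to 3089 in Egr1KO, from 2027 to 3381 in FosBcKO and from 3936 to 9132 over the genotypes. The differences in response, with 0 calls, gave 264 in Egr1KO and 404 in FosBcKO with no filter, and 28 by DESeq2 in FosBcKO. Leaving out 1 library moved the calls over all genes to 46 (without Egr1KO 6 h replicate 3) to 946 (without Egr1KO 6 h replicate 2, 731 of them lower) for Egr1KO against WT at 6 h, to 32 to 89 for Egr1KO and 21 to 139 for FosBcKO at 0 h, and after surgery to 534 to 3033 in Egr1KO and 935 to 2862 in FosBcKO. Depth limits Grem1 most, with 5 counts in 3 libraries in Egr1KO at 0 h.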
